A study of Mus musculus with 4 samples.

Results

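Mast cells made up 77 of the 34447 annotated cells, or 0.224% (exact Clopper-Pearson 95% interval 0.176 to 0.279), and were the class ranked 16 of 17 by size. They were taken as every cell that the deposited annotation placed in the class Mast. Mast cells are long-lived granulocytes of connective tissue and mucosa that need the growth factor receptor KIT. They store proteases, histamine and serotonin on the proteoglycan serglycin in granules, and release them when IgE bound to the receptor FcεRI is crosslinked. Connective-tissue mast cells are known for the chymases Mcpt4 and Cma1, the tryptase Tpsb2 and carboxypeptidase Cpa3, and mucosal mast cells for the chymases Mcpt1 and Mcpt2.

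CD45+ cells had been sorted from melanomas grown in Rag2-/- mice, which lack their own T and B cells. The injected cells were YUMM1.7-OVA RTT, mouse melanoma cells with ovalbumin as an antigen and with resistance to targeted therapy. All hosts had received OT-1 T cells, which recognise ovalbumin, on day 7, and tumours were taken on day 10, 72 h later. There was 1 library for each of 4 groups, made from 3 pooled tumours. CTRL tumours carried an mCherry vector, and IRF3/7 tumours overexpressed the interferon regulatory factors IRF3 and IRF7 from an SFFV promoter in the cancer cells, as a bulk sorted population. COX2i tumours were mCherry tumours in mice given the COX2 inhibitor celecoxib. COX2i + 5-AZA tumours were the same with the DNA methyltransferase inhibitor 5-azacytidine added. Mice were 6 to 12 weeks old, by the study's methods. Because each group was 1 library, no difference between groups could be tested, and pooled mice, library and treatment cannot be told apart. Intervals below are exact 95% intervals that cover counting error only and not the spread between cells or mice.

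The libraries held 6329 to 10032 cells, with medians of 6151 UMIs (unique molecular identifiers, the counted RNA molecules) per cell in CTRL, 3168 in IRF3/7, 7502 in COX2i and 6040 in COX2i + 5-AZA. Mast cells held 1249 to 18170 UMIs each, with a median of 8248, and 651669 in all. The 4 libraries shared droplet barcodes, as probe-barcoded libraries run together can. Of the mast cells, 27.3% lay in a droplet barcode seen in another library, against 29.1% of all cells, and 0 droplets held mast cells of 2 libraries.

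Levels are given as CPM, counts per 1e6, that is, the UMIs of a gene scaled to a fixed total of UMIs in the pooled cells. The assay counts a probe set, so levels were compared between cells for the same gene and not between genes. For the class against all other cells, ratios are descriptions without a test, since the cells had been clustered on these genes.

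Nearly all cells of the class carried its markers. Of the 77 cells, 72 held UMIs of all 6 markers (Cpa3, Tpsb2, Mcpt4, Cma1, Fcer1a and Tph1), 2 held 5 and 3 held 3. The markers took 11.6% of mast cell UMIs, and their summed level was 116377 CPM in mast cells and 8.28 CPM in all other cells. Of the 34370 other cells, 32509 held no UMI of any of the 6 and 7 held 3 or more. Genes that define eosinophils were at 0 in mast cells for all 4 measured members of a list of 10.

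Promoter sequences are shown for 5 genes picked from the 15 with the largest ratios to the other cells. Many other genes of the class also had an entry in the RefSeq table used here. These 5 thus do not stand for the class. Each window runs from 250 to 11 bases before the RefSeq start (GRCm38.p6), 5′ to 3′ on the strand of the gene. Capitals mark GATAA or its reverse complement TTATC, the core of the GATA motif, and CATGTG or CACATG, the E-box that MITF is known to bind. Both strands were searched, and the motifs do not overlap.
Cpa3, chr3:20242192-20242431, minus strand: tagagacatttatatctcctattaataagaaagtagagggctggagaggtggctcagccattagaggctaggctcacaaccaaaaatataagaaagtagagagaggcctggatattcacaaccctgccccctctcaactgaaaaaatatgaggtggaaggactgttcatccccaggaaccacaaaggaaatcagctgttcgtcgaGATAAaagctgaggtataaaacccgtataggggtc
Mcpt4, chr14:56062321-56062560, minus strand: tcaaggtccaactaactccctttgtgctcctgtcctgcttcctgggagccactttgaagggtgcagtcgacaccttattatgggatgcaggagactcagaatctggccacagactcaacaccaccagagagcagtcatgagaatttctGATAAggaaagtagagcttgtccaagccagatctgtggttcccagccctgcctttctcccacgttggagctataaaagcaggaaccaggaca
Mcpt1, chr14:56017714-56017953, plus strand: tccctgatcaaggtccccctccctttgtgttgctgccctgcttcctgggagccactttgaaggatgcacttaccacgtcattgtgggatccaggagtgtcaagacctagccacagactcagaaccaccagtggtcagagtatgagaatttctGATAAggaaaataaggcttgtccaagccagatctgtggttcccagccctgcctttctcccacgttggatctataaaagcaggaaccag
Cma1, chr14:55944686-55944925, minus strand: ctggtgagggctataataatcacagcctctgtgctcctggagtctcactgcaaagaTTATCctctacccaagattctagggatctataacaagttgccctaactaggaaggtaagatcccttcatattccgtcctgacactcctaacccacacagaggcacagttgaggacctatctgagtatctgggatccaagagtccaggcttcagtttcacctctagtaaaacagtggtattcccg
Fcer1a, chr1:173227240-173227479, minus strand: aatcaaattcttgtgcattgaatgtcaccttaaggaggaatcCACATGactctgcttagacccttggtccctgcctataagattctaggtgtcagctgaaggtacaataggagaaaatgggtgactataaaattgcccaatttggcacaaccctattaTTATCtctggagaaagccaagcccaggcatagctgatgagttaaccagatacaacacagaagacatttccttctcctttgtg

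Each of these 5 windows held 1 GATAA match, at 40 bases before the start in Cpa3, 97 in Mcpt4, 93 in Mcpt1, 189 in Cma1 and 87 in Fcer1a. The Fcer1a window also held 1 CACATG. The genes and motifs were chosen after values had been seen. Across all 32851 windows of that table, 22.0% held a GATAA match and 11.9% an E-box. The next shares are by gene, with a match in any window of the gene. Of 206 genes with a window that were at least 4-fold higher in mast cells, 49 (23.8%) held GATAA and 11.2% the E-box. Of all compared genes with a window, 16.6% and 8.59% did. These matches describe letters in the windows and not bound sites. The Mcpt4 and Mcpt1 windows were alike at 199 of 244 aligned positions (81.6%), whereas the other pairs shared 45.6% to 52.3%.

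Of 5287 genes compared (at least 20 UMIs in all, and at least 50 CPM in mast cells or in the others), 283 (5.35%) were at least 4-fold higher in mast cells and 608 (11.5%) at least 4-fold lower. The median log2 ratio over these genes was -0.23. Levels of 20 genes of the class are shown for each of the 17 classes in the plot of levels by class.

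**Figure D1:**
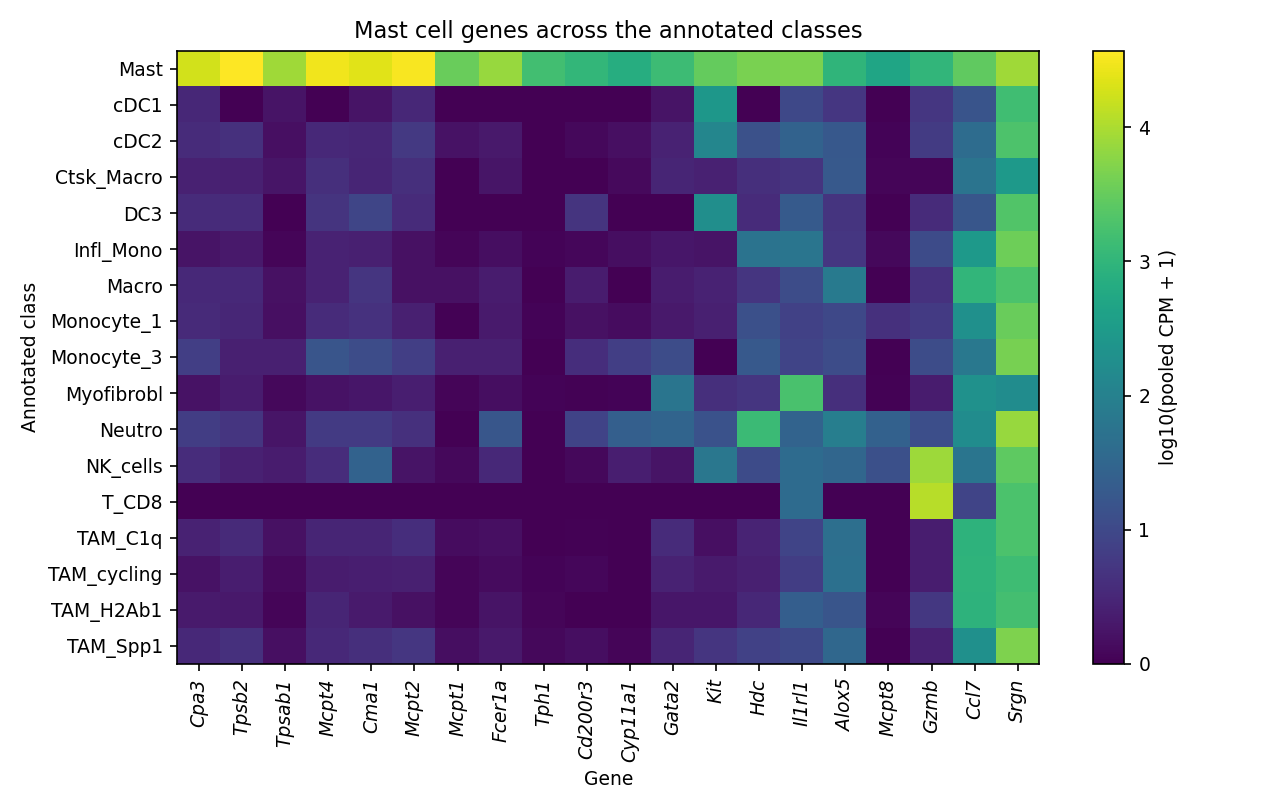
Pooled level of 20 genes (x axis) in each annotated class (y axis), as log10 of CPM + 1, by colour. Mcpt2 and Tpsb2 are near the top of the scale in mast cells and under 10 CPM in every other class, whereas Hdc is shared with neutrophils, Kit with dendritic cells, Il1rl1 with myofibroblasts and Gzmb with NK and CD8 T cells.

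Tryptases, chymases and Cpa3 were among the 15 genes with the largest ratios. The list of granule proteases took 15.8% of mast cell UMIs, and 10 of the 15 members compared were at least 4-fold higher and 3 at least 4-fold lower, against the 5.35% and 11.5% of all genes. Tpsb2, a tryptase on chromosome 17 (25366305 to 25369098, GRCm38), stood at 37175 CPM (36709 to 37646) in mast cells against 1.88 CPM elsewhere, a log2 ratio of 14.27 (14.14 to 14.40). Its neighbour Tpsab1 was at 8228 against 0.435 CPM and Tpsg1, a membrane-anchored tryptase, at 668 against 0.0523 CPM. No other class exceeded 4.06 CPM for Tpsb2, 1.51 for Tpsab1 and 0.812 for Tpsg1.

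The chymases lie together on chromosome 14, from Cma1 (55941451 to 55944675) through Mcpt1 (56017971 to 56020384) and Mcpt2 (56042041 to 56044642) to Mcpt4 (56059629 to 56062313). The basophil protease Mcpt8 (56082166 to 56085273) and the granzyme Gzmb (56258838 to 56262260) lie beyond them. Mcpt4 stood at 29174 CPM in mast cells against 1.79 CPM, with an interval of the log2 ratio of 13.86 to 14.13, and Cma1 at 23428 CPM with 13.29 (13.17 to 13.41). Cma1 was also seen at 26.0 CPM in NK cells, where 7.41% of cells held a UMI. Mcpt2 was at 33258 CPM (log2 ratio 13.94, 13.82 to 14.07) although 58 of 77 cells held a UMI, and Mcpt1 at 3350 CPM (13.69) in 37 cells. Without CTRL, these log2 ratios were 14.59 for Mcpt2 and 14.69 for Mcpt1. The Mcpt1 and Mcpt2 transcripts share a run of 49 bases and Mcpt1 and Mcpt4 one of 46, so how probes divide the reads among these 3 genes is uncertain. Cpa3, the carboxypeptidase of the granule, was at 17853 CPM against 1.46 (13.57, 13.42 to 13.73) and was found in all 77 cells.

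The lysosomal cathepsins in the same list moved apart from the proteases of the granule. Ctsl was at 44.5 CPM against 911 in other cells, Ctss at 241 against 4419, and Ctsc, which activates granule proteases, at 694 against 3632. Ctsd stood higher in mast cells, at 2236 against 676 CPM.

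The machinery that fills the granule was high as well. Of 12 compared genes for proteoglycans and amines, 9 were at least 4-fold higher and 0 lower, with a median log2 ratio of 3.72. Among all genes compared, 5.35% were higher and 11.5% lower. Hdc, which makes histamine, was at 4398 CPM against 14.7 (log2 ratio 8.23), and was next highest in neutrophils at 1314 CPM. Tph1, the rate-limiting enzyme of serotonin synthesis, was at 1545 against 0.0966 CPM, and no other class exceeded 0.270 CPM. Srgn, the serglycin core protein, was at 8455 against 2104 CPM, and neutrophils came close with 7347. The heparan and heparin sulfotransferase genes Hs6st2 (668 CPM, log2 ratio 11.67), Hs3st1 (523 CPM, 9.86) and Ndst2 (296 CPM, 3.24) were higher, and Ndst1 was near the others at 109 against 89.7 CPM.

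For the IgE receptor, the binding subunit and not the shared subunit distinguished the class. Fcer1a was at 7202 CPM against 0.712 (13.30, 13.09 to 13.53), whereas the signalling chain Fcer1g was at 2827 against 2984 CPM (-0.08, -0.14 to -0.01). Of 20 compared members of the receptor and its proximal signalling, 5 were at least 4-fold higher and 0 lower, with a median of 1.03. Over all genes the shares were 5.35% and 11.5%. The adaptor Lat was at 689 against 1.81 CPM, the adaptor Lat2 at 1642 against 326, and the phospholipase Plcg1 at 249 against 19.5. The kinases Syk (267 against 301 CPM) and Lyn (328 against 678 CPM) were not higher in mast cells.

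Among growth factor and cytokine receptors, 4 of 14 were at least 4-fold higher and 2 lower, with a median of 1.16, against 5.35% and 11.5% of all genes. Kit was at 3133 CPM against 9.04 (8.44), with cDC1 next at 261 CPM and DC3 at 181. The IL-33 receptor Il1rl1 was at 4627 against 217 CPM (4.42), and myofibroblasts held 1778 CPM. Il9r was found in 25 cells, at 66.0 against 0.0322 CPM, and Csf2rb2, a β chain used by the IL-3 receptor, was at 602 against 80.9. The macrophage growth factor receptor Csf1r was lower, at 35.3 against 951 CPM (-4.75).

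Of 26 compared transcription factors, 11 were at least 4-fold higher and 3 lower, with a median of 0.88, against 5.35% and 11.5% of all genes. The share that was lower was thus that of all genes. Gata2, a regulator of mast cell identity, was at 1350 against 8.53 CPM (7.31). Creb3l1 was at 1047 against 12.5 CPM, Tal1 at 232 against 10.7 and Gfi1 at 64.5 against 0.925. Mitf, which controls mast cell and melanocyte genes, was at 270 against 46.6 CPM (2.54). The myeloid factors Cebpa (35.3 against 213 CPM), Cebpb (200 against 1328 CPM) and Lmo2 (29.2 against 175 CPM) were the 3 that were lower.

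The lipid mediator genes did not move as a group: of 10 compared, 1 was at least 4-fold higher and 3 lower, with a median of -0.41. For all genes these shares were 5.35% and 11.5%. The leukotriene enzyme Alox5 was at 973 against 30.5 CPM (5.00), while its partner Alox5ap was at 1360 against 1128. Ptgs2, which encodes COX2, the target of celecoxib, was found in 7 mast cells and was at 24.6 against 401 CPM (-4.03). Its relative Ptgs1 was at 218 against 61.6 CPM and the prostaglandin D synthase Hpgds at 353 against 108. The microsomal prostaglandin E synthase Ptges was at 3.07 against 51.0 CPM. By library, Ptgs2 stood at 40.8 CPM in CTRL mast cells, at 0 in IRF3/7 and COX2i and at 14.3 in COX2i + 5-AZA, with 3 UMIs being worth 9.42, 167, 28.4 and 14.3 CPM there. In CTRL, 1 cell held 10 of the 13 Ptgs2 UMIs (76.9%), so a difference between libraries was not detectable at this depth.

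Of 9 compared receptors for prostanoids, leukotrienes and purines, 5 were at least 4-fold higher and 2 lower, with a median of 3.89. For this list and the inhibitory receptor and exocytosis lists that follow, the shares over all genes were 5.35% and 11.5%. The PGE2 receptor Ptger3 was at 107 against 0.338 CPM (8.31), the ATP-gated channel P2rx1 at 178 against 0.571 (8.28), and the adenosine receptor Adora3 at 606 against 34.4. Of 15 inhibitory and pairing receptors, 3 were higher and 4 lower. The CD200 receptor family accounted for the 3, with Cd200r3 at 1063 against 0.266 CPM, Cd200r4 at 216 against 13.5 and Cd200r1 at 250 against 47.5. Exocytosis genes were near the others, with 3 of 19 higher, 0 lower and a median of 0.29. Those 3 were the small GTPases Rab27b (1077 against 2.17 CPM) and Rab37 (114 against 2.47 CPM) and the granule membrane protein Cd63 (4441 against 684 CPM).

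Most compared chemokines were lower in mast cells. Of 12, 9 were at least 4-fold lower and 1 was higher, with a median of -3.94, while their summed level was 4172 CPM against 4841. Of all genes, 11.5% were lower and 5.35% higher, which also applies to the cytokines below. Ccl7, which attracts monocytes, was the higher one of the 12, at 2834 against 571 CPM (2.31) and in 71 of 77 cells, and Ccl2 was at 1007 against 473 CPM. The next highest class for Ccl7 was Macro, at 998 CPM with a UMI in 62.4% of cells. The lymphocyte attractants Ccl5, Cxcl9 and Cxcl10 were at 1.53, 7.67 and 6.14 CPM against 153, 235 and 356. Of 12 cytokines and growth factors, 4 were higher and 2 lower, with a median of 0.79. The type 2 cytokine Il13 was found in 21 mast cells at 160 against 0.105 CPM, Il6 in 27 cells at 149 against 6.05 CPM, Tnf in 34 cells at 243 against 48.6 CPM and Csf1 in 42 cells at 140 against 21.2 CPM. The 10 cells with most held 79.8% of Il13 UMIs and 78.4% of Il6 UMIs, so neither was spread evenly over the class. For Il6, Neutro came close with 127.5 CPM, from UMIs in 8 cells, and DC3 held 49.7 CPM.

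Among 20 adhesion and homing genes, 3 were at least 4-fold higher and 8 lower, with a median of -1.13. The shares over all genes were 5.35% and 11.5%. Itga2b, an integrin chain shared with megakaryocytes, was at 577 against 0.491 CPM, the progenitor antigen Cd34 at 766 against 15.9 and the adhesion molecule Cadm1 at 196 against 30.3. The chemokine receptors Ccr1 (41.4 against 382 CPM), Ccr2 (24.6 against 418 CPM) and Cxcr4 (13.8 against 349 CPM) were lower. Further genes ranked high by ratio were Cobl, an actin nucleator, at 514 CPM (13.79), Car8, a carbonic anhydrase-like protein, at 881 CPM (11.88), and Cyp11a1, the first enzyme of steroid synthesis, at 704 CPM (11.25). The Cyp11a1 ratio was 8.45 with the other classes weighted equally, and Neutro, the next highest class, was at 22.7 CPM with UMIs in 4 cells. The level of Cyp11a1 in mast cells ran from 254 CPM in CTRL to 1499 CPM in COX2i + 5-AZA. Without COX2i, Cobl was at 13.19, and without COX2i + 5-AZA, Car8 was at 12.48. Ctla2a (5510 against 91.5 CPM) and the protease inhibitor Serpinb1a (5038 against 3.45 CPM) were also higher in mast cells, the latter with a log2 ratio of 10.51 pooled and of 8.44 with the other classes weighted equally. Ctla2a was shared with NK_cells, where it stood at 1241 CPM with a UMI in 85.9% of cells. All 20 genes that the study used for this class were at least 4-fold higher, with a median of 11.09, and as that list was chosen on data that include these libraries it is not independent evidence.

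Genes that other immune cells share were low. Of all genes compared, 11.5% were at least 4-fold lower. All 9 compared MHC class II genes were at least 4-fold lower (median -3.68), as were 24 of 47 interferon-stimulated genes (-2.01), 9 of 9 neutrophil genes (-3.28), 19 of 20 macrophage and monocyte genes (-4.29), 2 of 3 dendritic cell genes (-3.27), 3 of 4 NK and T cell genes (-3.23) and 6 of 7 stromal genes (-5.08). The pooled ratio of the interferon list mixes libraries with unequal numbers of mast cells. Within libraries its summed level was 2453 CPM in mast cells against 4954 in other cells of CTRL, 16717 against 45618 in IRF3/7, 3827 against 6854 in COX2i and 9264 against 18667 in COX2i + 5-AZA. Of the 47 members, 3, 3, 6 and 4 were higher in mast cells than in the other cells of the same library. Among the 10 genes furthest below the others were Col1a2 (-5.92), Ccl12 (-5.22), Spp1 (-5.20), Sdc3, Fn1 (-5.09), Chil3, C5ar1, Csf1r and Aif1. Without CTRL, Fn1 stood at -6.28, Sdc3 at -6.43, Chil3 at -5.97, Aif1 at -5.90 and Csf1r at -5.42, while Chil3 was at -4.20 without IRF3/7 and Sdc3 at -4.57 without COX2i + 5-AZA. Col1a2 was highest in myofibroblasts, and stood at -2.91 against monocytes and macrophages alone. Of 20 cell cycle genes, 0 passed 4-fold in either direction (median 0.49). Of 3 melanoma genes compared, 1 was higher, which was Mitf, and 1 lower.

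Basophils share Fcer1a and Cd200r3 with mast cells. Of 7 basophil genes compared, 5 were at least 4-fold higher and 2 lower, against 5.35% and 11.5% of all genes. Mcpt8, the basophil protease, was at 490 CPM in mast cells, but 2 cells held 89.7% of its UMIs. Outside the class, 3 neutrophil-labelled cells with UMIs of at least 2 of Fcer1a, Cd200r3 and Mcpt8 held 17 of the 19 Fcer1a UMIs and 26 of the 31 Mcpt8 UMIs of the class Neutro. Mcpt8 was also seen outside the class in Monocyte_1 (79 UMIs in 5 cells) and in NK_cells (50 UMIs in 20 cells).

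By the rank correlation of levels over genes, the classes most like mast cells were Macro (Spearman rho 0.646 over 5316 genes) and NK_cells (0.623 over 5553 genes), as a description. The class cDC2 (0.623 over 5580 genes) was level with NK_cells, and cDC1 and TAM_cycling stood at 0.620. Against Macro the genes with the largest ratios were Mcpt2 (15.77), Mcpt4 and Tpsb2 (13.93), and against NK_cells Mcpt2 (15.50), Tpsb2 (14.44) and Mcpt1 (13.78). Mcpt2 held 1 UMI in Macro (interval 13.29 to 21.08) and Mcpt1 held 1 in NK_cells (11.30 to 19.08). Ranks that rest on so few UMIs are not fixed. Tpsab1, Cpa3, Fcer1a, Car8, Gata2 and Cd200r3 were among the first 15 against both, as was Mcpt4.

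The share of mast cells was highest in CTRL. There were 38 mast cells of 8953 cells in CTRL (0.424%, 0.301 to 0.582), 3 of 6329 in IRF3/7 (0.0474%, 0.00978 to 0.139), 13 of 9133 in COX2i (0.142%, 0.0758 to 0.243) and 23 of 10032 in COX2i + 5-AZA (0.229%, 0.145 to 0.344). The CTRL share was 8.95-fold that of IRF3/7 (2.84 to 45.3), 2.98-fold that of COX2i (1.55 to 6.10) and 1.85-fold that of COX2i + 5-AZA. These 3 ratios share the CTRL library. COX2i + 5-AZA against COX2i gave a ratio of 1.61 (0.782 to 3.46), an interval that includes equal shares. Over cells other than monocytes and macrophages, the log2 ratio of this last comparison rose from 0.69 to 1.33. A lower share can come from fewer mast cells or from more of the other cells, which cannot be told apart here. The IRF3/7 library was also the shallowest, and its 3 mast cells had 1898, 3846 and 12202 UMIs, which limits what can be said of mast cells in that group to the values themselves.

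**Figure D2:**
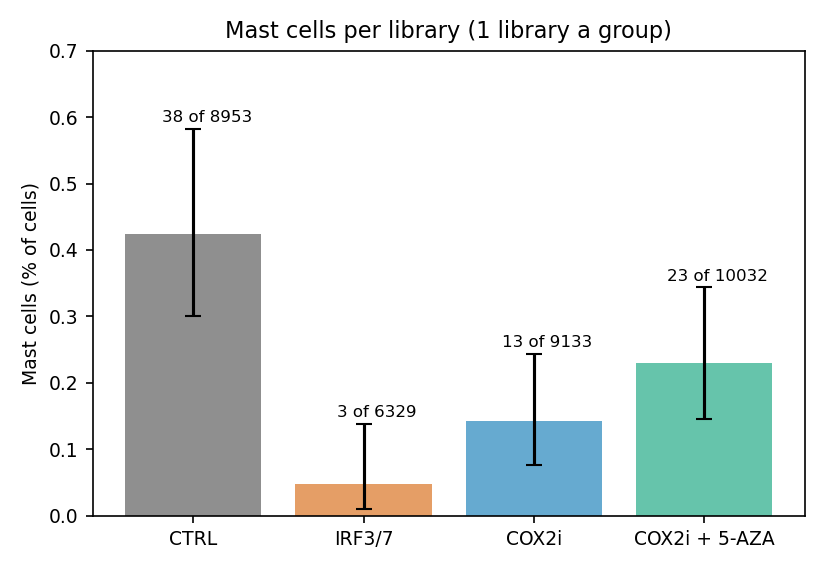
Share of mast cells in each library in % of its cells (y axis), with exact 95% intervals for counting error as bars and the cell counts above. CTRL is the highest at 0.424% and IRF3/7 the lowest at 0.0474%.

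Several defining genes were alike between CTRL, COX2i and COX2i + 5-AZA. Cpa3 was at 14931 CPM in CTRL mast cells, 10030 in IRF3/7, 19326 in COX2i and 22218 in COX2i + 5-AZA. Mcpt4 was at 26427, 13318, 29570 and 34508 CPM in the same order, and Cma1 at 21314, 16048, 26962 and 25487. Kit was at 3518, 1337, 3156 and 2692 CPM. For these genes CTRL, COX2i and COX2i + 5-AZA lay within 2-fold of each other, and the IRF3/7 values rest on 3 cells. Hdc was at 4130, 6742, 3950 and 4830 CPM, Fcer1a at 5908, 6742, 6606 and 9508 and Gata2 at 1036, 2006, 1465 and 1713.

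Mcpt2 was the exception among the abundant proteases. It was at 40975 CPM in CTRL, 279 in IRF3/7, 53734 in COX2i and 14013 in COX2i + 5-AZA. A UMI was present in 36 of 38, 1 of 3, 12 of 13 and 9 of 23 cells, and the median cell held 211, 0, 444 and 0 UMIs, with up to 1778 in 1 cell. With every cell thinned to 1000 UMIs, 32, 1, 10 and 8 cells held one. The log2 ratio of COX2i + 5-AZA was -1.55 to CTRL (-1.61 to -1.49) and -1.94 to COX2i, while COX2i was 0.39 above CTRL (0.35 to 0.44). Mcpt1 was at 3185, 279, 5670 and 2692 CPM, in 22, 1, 8 and 6 cells. In COX2i + 5-AZA, 1 cell held 52.8% of the Mcpt1 UMIs and a different cell held 41.1% of the Mcpt2 UMIs. In contrast Tpsb2, at 39562, 10643, 39512 and 34641 CPM, was in 38, 2, 13 and 22 cells.

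**Figure D3:**
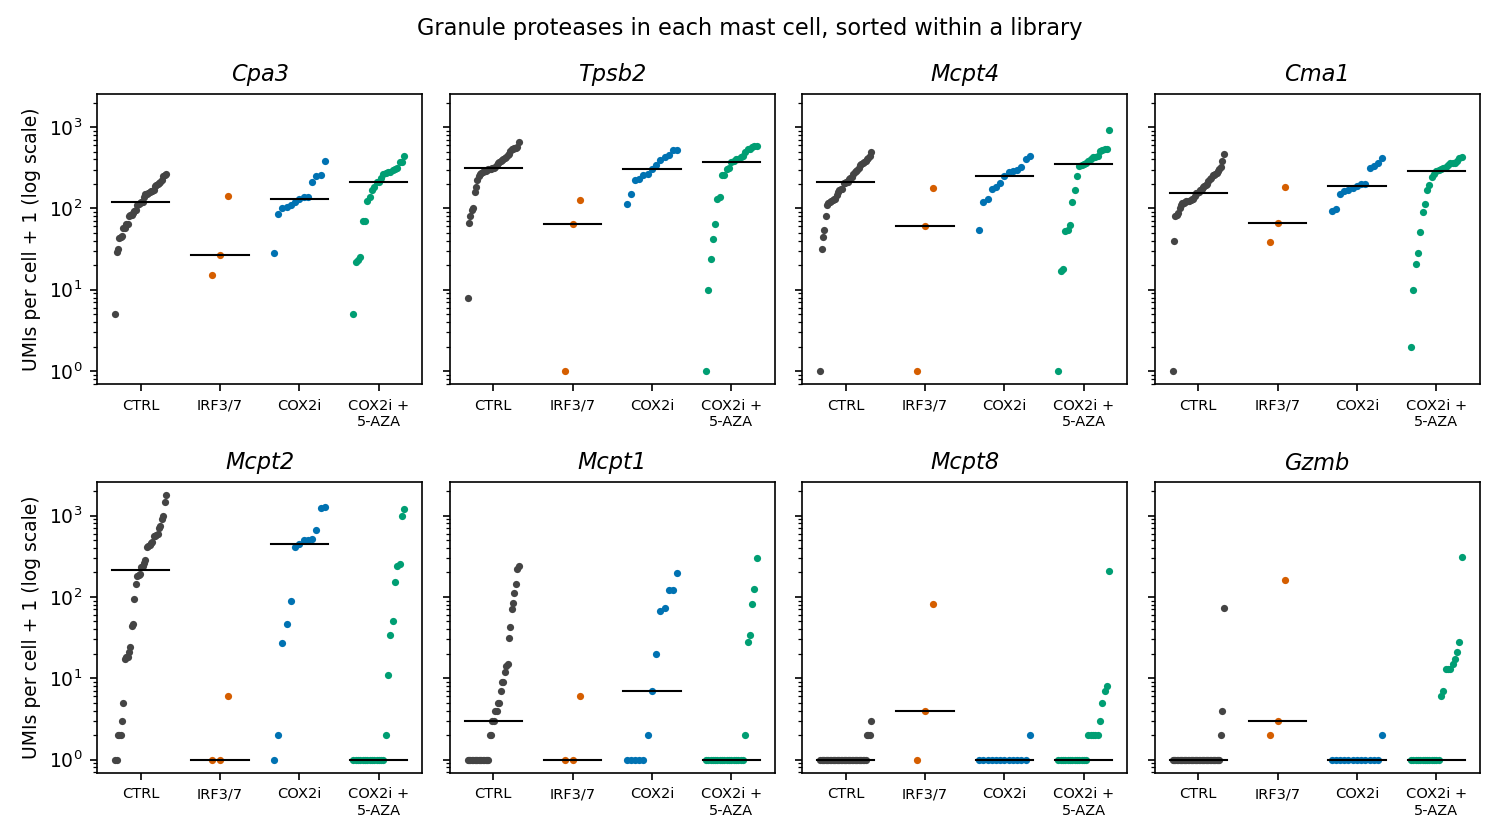
UMIs + 1 of 8 proteases on a log scale (y axis) in each mast cell, sorted within each library (x axis), with the median as a line. Mcpt2 runs from 0 to 1778 UMIs and its median is 0 in COX2i + 5-AZA, whereas Mcpt8 and Gzmb are high in a few cells.

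Within a library, cells with more Mcpt2 tended to have more Mcpt1. The Spearman rho over cells was 0.43 in CTRL (38 cells), 0.84 in COX2i (13 cells) and 0.86 in COX2i + 5-AZA (23 cells), and with Alox5ap it was 0.47, 0.58 and 0.63. With the MHC class I gene H2-K1 it was -0.58, -0.13 and -0.73, with its relative H2-D1 0.08, -0.60 and -0.61, and with B2m -0.07, -0.40 and -0.26, so the class I genes were not alike in CTRL. With Fcer1a it was -0.56, -0.64 and -0.08, and with Cyp11a1 -0.10, -0.15 and -0.64. These cells share a library and a total of UMIs of which the proteases are a large part, and the values are descriptions. Mcpt4 and Cma1 went together at 0.76, 0.48 and 0.70, whereas the tryptases Tpsb2 and Tpsab1 did not (-0.24, 0.13 and -0.18).

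**Figure D4:**
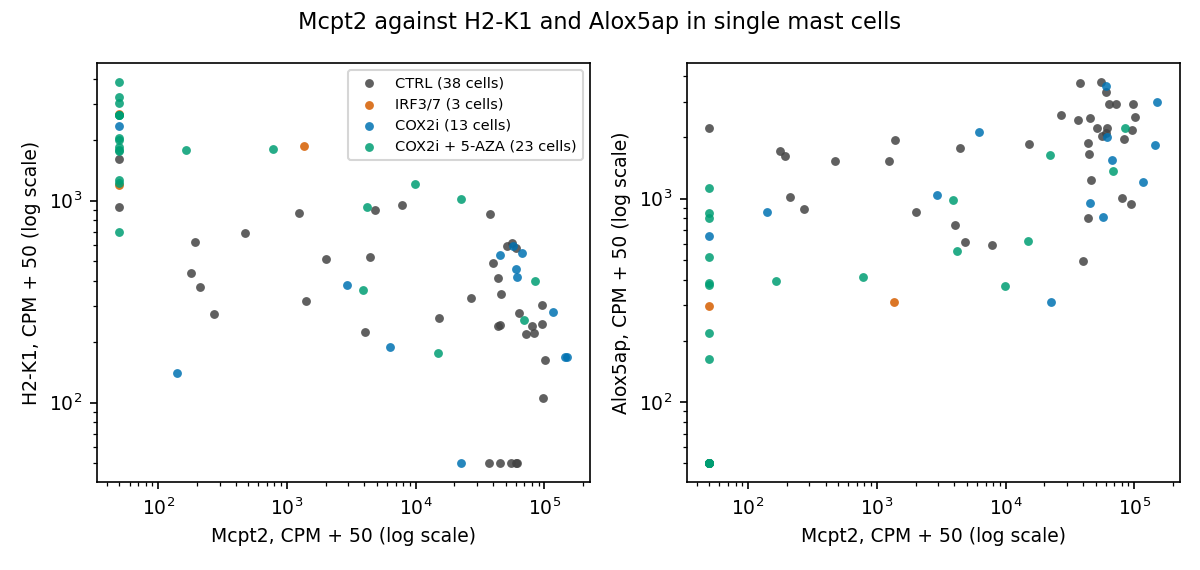
Level of Mcpt2 (x axis, CPM + 50, log scale) against H2-K1 and Alox5ap (y axes, CPM + 50, log scale) in each of the 77 mast cells, coloured by library. Of the 23 cells of COX2i + 5-AZA, 14 have no Mcpt2 and lie at the left edge, in the upper part for H2-K1 and over a wide range for Alox5ap.

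The 2 cells with over 50 Mcpt8 UMIs were 1 from IRF3/7 (12202 UMIs, 4329 genes) and 1 from COX2i + 5-AZA (10730 UMIs, 4096 genes). They held 80 and 206 Mcpt8 UMIs and 160 and 305 Gzmb UMIs, and 0 UMIs each of Tpsb2, Tpsab1, Mcpt4, Mcpt2, Mcpt1, Tpsg1 and Tph1. Both kept Cpa3 (140 and 69 UMIs), Fcer1a (71 and 18), Kit (9 and 14) and Gata2 (19 and 28), and Cma1 was 184 in the first and 1 in the second. Both also carried the proliferation genes Mki67 (6 and 10) and Top2a (12 and 21). They are part of the annotated class but lack the tryptases, and they are given here without a name of their own. The first is 1 of the 3 IRF3/7 mast cells and holds 12202 of that library's 17946 mast cell UMIs, so it weighs most in the levels given for IRF3/7.

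In all, 15 of 77 mast cells had at least 5 UMIs of both Mki67 and Top2a, with 7 in CTRL, 1 in IRF3/7, 1 in COX2i and 6 in COX2i + 5-AZA. These cells were deeper, with a median of 12815 UMIs against 7134 in the others.

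Between libraries, genes with at least 20 UMIs in the mast cells of both libraries together were compared. For COX2i + 5-AZA against CTRL, 266 of 5099 genes (5.22%) were at least 2-fold higher and 349 (6.84%) at least 2-fold lower. For COX2i against CTRL, 178 of 4294 (4.15%) were higher and 533 (12.4%) lower. For COX2i + 5-AZA against COX2i, 339 of 3288 (10.3%) were higher and 141 (4.29%) lower. The first 2 comparisons share the CTRL cells. In the same order, the median half-width of the counting interval over these genes was 0.98, 1.18 and 1.13 log2. A 2-fold cut thus lies near the counting error of the median gene. The mast cells held 318388 UMIs in CTRL, 105817 in COX2i and 209518 in COX2i + 5-AZA. Scaling by the median of ratios moved log2 values by 0.14 for COX2i against CTRL and by -0.16 for COX2i + 5-AZA against COX2i.

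Of the cell cycle list, 2 of 19 compared members were at least 2-fold higher and 11 lower in COX2i than in CTRL mast cells (median -1.08, and 0.68 in all other cells). In COX2i + 5-AZA, 4 of 20 were higher and 1 lower than in CTRL (0.27, and -0.37 in other cells), and 10 of 17 were higher and 0 lower than in COX2i (1.13, and -1.10 in other cells). Over all genes, 4.15% were at least 2-fold higher and 12.4% lower for COX2i against CTRL. The shares were 5.22% and 6.84% for COX2i + 5-AZA against CTRL, and 10.3% and 4.29% for COX2i + 5-AZA against COX2i. The cell cycle values rest on few cells, such as the 1 COX2i cell with at least 5 UMIs of both Mki67 and Top2a.

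Interferon-stimulated genes stood higher in mast cells of COX2i + 5-AZA. Against CTRL, 16 of 22 compared members were at least 2-fold higher and 1 lower, with a median log2 ratio of 2.34 against -0.03 over all genes. Against COX2i, 15 of 19 were higher and 0 lower, with a median of 1.52 against 0.06. For COX2i against CTRL, 4 of 11 were higher and 1 lower, with a median of 0.49 against -0.13. The all-gene shares in the same order were 5.22%, 10.3% and 4.15% higher, and 6.84%, 4.29% and 12.4% lower. In all other cells of the same libraries the same members had medians of 2.09, 1.49 and 0.39. Whether mast cells differed from the others in this was not tested.

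Isg15, a ubiquitin-like protein that interferon induces, was at 50.3 CPM in CTRL mast cells (5 of 38 cells), 1393 in IRF3/7 (3 of 3), 104 in COX2i (5 of 13) and 716 in COX2i + 5-AZA (13 of 23). The groups IRF3/7 and COX2i + 5-AZA were the 2 higher. In COX2i + 5-AZA the median mast cell held 1 Isg15 UMI and 1 cell held 49 of the 150, so the level was uneven over cells. The peptide transporter gene Tap1 was at 28.3, 223, 47.3 and 382 CPM and the MHC class I gene H2-K1 at 324, 1449, 454 and 1274. B2m, the class I light chain, was at 682, 1839, 945 and 1990 CPM, and H2-Q7, a nonclassical class I gene, at 31.4, 446, 94.5 and 649. Against CTRL, the log2 ratios in COX2i + 5-AZA were 3.83 for Isg15 (3.09 to 4.68), 3.76 for Tap1 (2.76 to 4.94), 1.98 for H2-K1 and 4.37 for H2-Q7. Other high ratios were those of Igtp, an interferon-inducible GTPase (5.34, 3.74 to 7.65), Gbp2 (4.81) and Ube2l6 (4.81). CTRL mast cells held 3, 4 and 2 UMIs of these genes. For Gbp2, 1 COX2i + 5-AZA cell held 31 of the 74 UMIs.

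**Figure D5:**
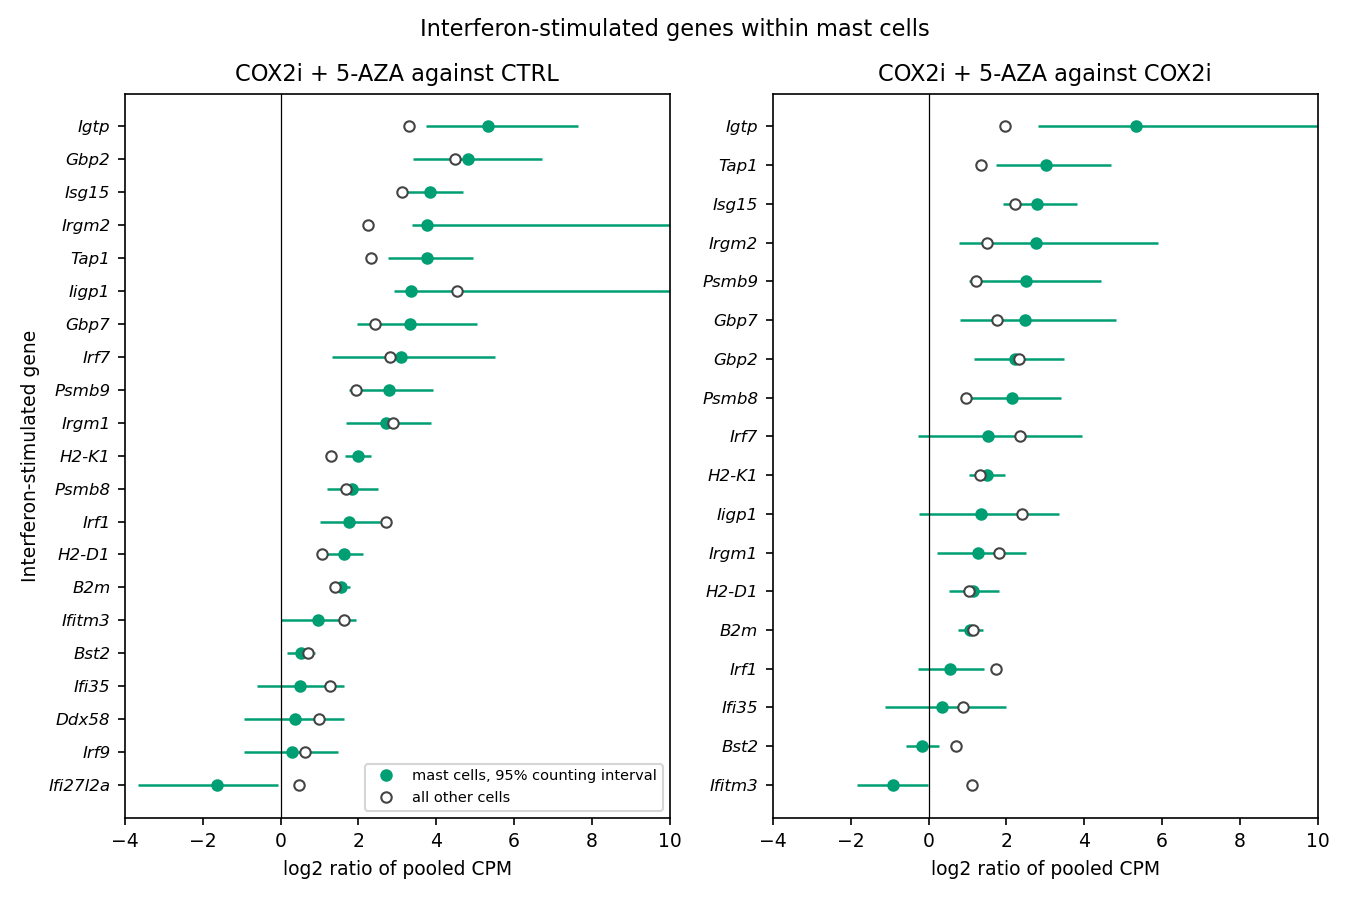
Log2 ratio of pooled CPM (x axis) for compared interferon-stimulated genes (y axis), in COX2i + 5-AZA against CTRL and against COX2i. Filled points with lines are mast cells with 95% counting intervals and open points all other cells. Most filled points lie right of 0, and the medians over all compared members were 2.34 and 1.52.

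Other genes also differed between mast cells of COX2i + 5-AZA and CTRL. Cyp11a1 was at 254 CPM in CTRL, 1170 in IRF3/7, 406 in COX2i and 1499 in COX2i + 5-AZA, with a UMI in 23 of 38, 2 of 3, 10 of 13 and 23 of 23 cells, and its log2 ratio to CTRL was 2.56 (2.20 to 2.93). The homing integrin Itgb7 was at 62.8, 334, 208 and 377 CPM (2.59). Alox5ap went the other way, at 1853, 223, 1465 and 654 CPM (-1.50, -1.78 to -1.23), as did the amino acid transporter Slc7a5, at 2396, 111, 964 and 998 CPM. The values of Slc7a5 in COX2i and COX2i + 5-AZA were both below CTRL (-1.31 and -1.26) and close to each other (0.05, -0.30 to 0.41).

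The largest differences between libraries often came from 1 cell. In COX2i + 5-AZA against CTRL, Mcpt8 (6.13) fell to 2.94 and the actin-severing Scin (5.77) to 3.68 without the cell with most UMIs. Of the genes most below CTRL, Ctsk had 92.4% of its CTRL UMIs in 1 cell, and Mmp9 moved from -3.57 to -0.05 without 1 cell. Fn1 (-3.86), Tnfaip2 (-3.15) and C1qc (-3.40) stood at -3.02, -2.65 and -1.80 without it.

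For COX2i against CTRL, the MHC class II genes H2-Eb1 (3.95), H2-Aa (2.82) and Cd74 (2.37) were highest through 1 cell, and became 0.95, -0.40 and -1.16 without it. In CTRL the cell with most UMIs of each gene was kept, and held 70.6%, 73.1% and 72.8% of the CTRL UMIs. The values after removal thus rest on 1 CTRL cell. Ifitm1 (2.81) became 0.14. Gzmb, at -4.68, had 94.8% of its CTRL UMIs in 1 cell and stood at -0.45 without it. Mlph (57 UMIs in 25 CTRL cells against 1 UMI in COX2i, -4.24, -9.57 to -1.71), which links granules to motors, and Agap1 (47 UMIs in 19 cells against 1, -3.97) were spread over cells. C1qb (-3.84) became -2.40, and Thbs1, with 124 UMIs in CTRL against 0, stood at -2.45 or below without the CTRL cell with most, with the 0 set to 3 UMIs. The early response gene Nr4a1 was at 923 CPM in CTRL, 0 in IRF3/7, 3175 in COX2i and 1532 in COX2i + 5-AZA (1.78 for COX2i, 1.55 to 2.01), and Il6 at 97.4, 279, 444 and 66.8 CPM.

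For COX2i + 5-AZA against COX2i, Gzmb (7.76), Mcpt8 (6.86), Igtp (5.34), Cxcl2 (4.99) and Mlph (3.87) were highest. Each had 1 UMI in the COX2i mast cells, and the intervals were 5.27 to 13.07 for Gzmb, 4.37 to 12.17 for Mcpt8, 2.82 to 10.66 for Igtp, 2.46 to 10.32 for Cxcl2 and 1.28 to 9.22 for Mlph. Without the top cell of COX2i + 5-AZA, Gzmb stood at 6.05, Mcpt8 at 3.68 and Cxcl2 at 3.10. Il6 (-2.73), H2-Eb1 (-2.57), Cd74 (-2.27), Irf2bp2 (-2.17) and the histone demethylase Kdm6b (-2.16) were lowest. Without the top COX2i cell H2-Eb1 was at 0.42 and Cd74 at 1.26. The top COX2i + 5-AZA cell of each was kept, with 18 of the 29 H2-Eb1 UMIs and 34 of the 57 Cd74 UMIs. In COX2i, 1 cell held 21 of the 47 Il6 UMIs and 1 cell held 28 of the 82 Irf2bp2 UMIs.

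RNA of other cell types was present at a low level and differed between libraries. The summed macrophage and monocyte list of 20 genes was at 5371 CPM in CTRL mast cells, 1449 in IRF3/7, 2174 in COX2i and 1928 in COX2i + 5-AZA, against a median of 44103 per cell in monocytes and macrophages. None of its 20 genes was at 0. Against CTRL, 9 of 14 compared members were at least 2-fold lower in COX2i (median -1.49) and 15 of 17 in COX2i + 5-AZA (-1.79), with 0 higher in either. Of all genes, 12.4% and 6.84% were lower in the same order. In CTRL, 2 cells held 183 and 144 Apoe UMIs, which was 54.0% of all Apoe UMIs of the class. The mast cell with the next most, from COX2i, held 38. A single cell in each of CTRL, COX2i and COX2i + 5-AZA had over 30 Cd74 UMIs, and these 3 held 79.2% of them. Without the cells above the 90th percentile of the list, Fn1 (-4.35) and C1qc (-2.60) were still lower in COX2i + 5-AZA than in CTRL, C1qb stood at -1.56 and Thbs1 at -1.53 or below for COX2i against CTRL, and the interferon list at 2.92 for COX2i + 5-AZA against CTRL.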

How the data were processed

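Tumour CD45+ cells were fixed for 22 h and profiled with the probe-based Chromium Flex assay. Per the labels and the study's methods, the authors made the counts with Cell Ranger 7.1.0 and the mm10 probe set, filtered cells and genes, removed ribosomal and mitochondrial genes, and clustered and named the cells. The deposited matrix holds whole UMI counts of 12584 genes in 34447 cells, and classes were read from the deposited annotation. No further filter on cells was set, and the authors' clusters were used without a doublet caller. Mast cells and gene lists were chosen with earlier results of these data known.

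Counts were summed per class and library and given as CPM with exact intervals, using Python 3.11.15, numpy 2.4.6, scipy 1.17.1 and pandas 2.3.3. A UMI sum of 0 was set to 3 for ratios. Named genes were the members of 25 lists, the 15 with the largest ratio to other cells, to Macro and to NK_cells, the 10 most abundant, the 10 furthest below, and 5 per direction between libraries (at least 30 UMIs and 100 CPM). H2-Q7, Itgb7, Mcpt2 pairs and the 2 Mcpt8-high cells were singled out after values were seen. Some genes that met these rules are not reported here. Libraries were compared within mast cells only with at least 10 mast cells in each. Steps were tested on simulated data. Alternatives were the cells, denominators, filters and scalings, and 3 chosen after seeing the data: leaving out the 2 Mcpt8-high cells, totals without granule proteases, and leaving out the cell with most UMIs of a gene.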

Additional observations from a re-analysis of the deposited data

How the results depend on the processing

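No paired analysis was possible because each group has 1 library, and for the same reason no difference between groups was tested. The genes at least 4-fold higher and lower in mast cells numbered 449 and 1062 with a minimum of 10 CPM, and 135 and 234 with a minimum of 200 CPM, as the minimum sets how many genes are compared. Leaving out each library in turn gave 288 to 298 higher and 571 to 636 lower. The interferon list within mast cells ranged from 0.35 to 0.63 for COX2i against CTRL, from 2.28 to 2.92 for COX2i + 5-AZA against CTRL and from 1.41 to 1.79 for COX2i + 5-AZA against COX2i. Without the cell with the most UMIs of the gene in the higher library, H2-Aa and Cd74 turned to -0.40 and -1.16 for COX2i against CTRL, and H2-Eb1 and Cd74 to 0.42 and 1.26 for COX2i + 5-AZA against COX2i. The top cell of the lower library was kept, and in CTRL it held 73.1% of H2-Aa and 72.8% of Cd74 UMIs. These signs are thus not settled. With only classes other than monocytes and macrophages as the denominator, the log2 ratio of the mast cell share was -3.61 for IRF3/7, -1.94 for COX2i and -0.60 for COX2i + 5-AZA against CTRL, and 1.33 for COX2i + 5-AZA against COX2i. Of 542 alternative values, shares, counts and list medians moved past their limits in the 4 counts above, and values of single genes moved further than counting error allows in 111 and changed sign in 4. Without CTRL, Mcpt2 stood at 14.59 and Mcpt1 at 14.69 against all other cells. With other classes weighted equally, Cyp11a1 stood at 8.45 and Serpinb1a at 8.44. After thinning to 1000 UMIs, Tph1 was seen in 61.0% of mast cells, against 93.5% before. The 3 cells of IRF3/7 and the 13 of COX2i limit what these libraries can show.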
